A study of Mus musculus with 2 samples.

Results

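Collagen genes were taken as every protein-coding gene whose GENCODE mouse symbol is Col, a number, a and a number, which gave 44 genes among the 43346 genes measured and among 21474 protein-coding genes. Their RNA was measured in the heart of newborn mice. Both libraries belonged to 1 group: whole heart at postnatal day 0 from mice of strain B6NTac;B6NCrl/Lap, healthy, with males and females pooled. Replicate 1 came from 15 mice, replicate 2 from a pool whose size was not given, and both carry the same donor label while being described as separate isolates. Total RNA longer than 200 nucleotides was depleted of ribosomal RNA, mixed with spike-in RNAs and read as stranded pairs. With 1 group of 2 libraries no test between groups was possible, so values are given per library. An exact sign-flip test over the 2 replicates cannot go below p = 0.5, and none was run. The spread is that between 2 pools and not between animals.

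Collagens are secreted proteins in which 3 chains wind into a triple helix, and a helix needs glycine at the first of every 3 residues, written Gly-X-Y. Fibrillar collagens pack into the banded fibres that give tissue its tensile strength. Basement membrane collagen forms the sheet-like network under endothelium and around each muscle cell, beaded filaments link that sheet to the fibres, and FACIT collagens (fibril-associated collagens with interrupted triple helices) coat fibril surfaces. In heart, fibroblasts are the best known source of fibrillar chains, while endothelial, mural and muscle cells also make basement membrane chains.

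Levels are in TPM, a relative abundance of transcripts that divides a gene's estimated read count by its effective length and so allows genes to be compared. A gene at 1 TPM or more in both replicates was counted as detected. Of the 44 collagens, 22 were detected, beside 47.1% of all protein-coding genes. Another 5 reached 1 TPM in a single replicate and 17 in neither. Summed over all 44 genes, collagens stood at 808 TPM in replicate 1 and 919.9 in replicate 2, which is 0.242% and 0.274% of protein-coding TPM. By estimated counts, 461949 of 69946215 gene counts (0.660%) and 550672 of 73615802 (0.748%) lay in collagen genes. The summed level was 1.14-fold higher in replicate 2.

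**Figure D1:**
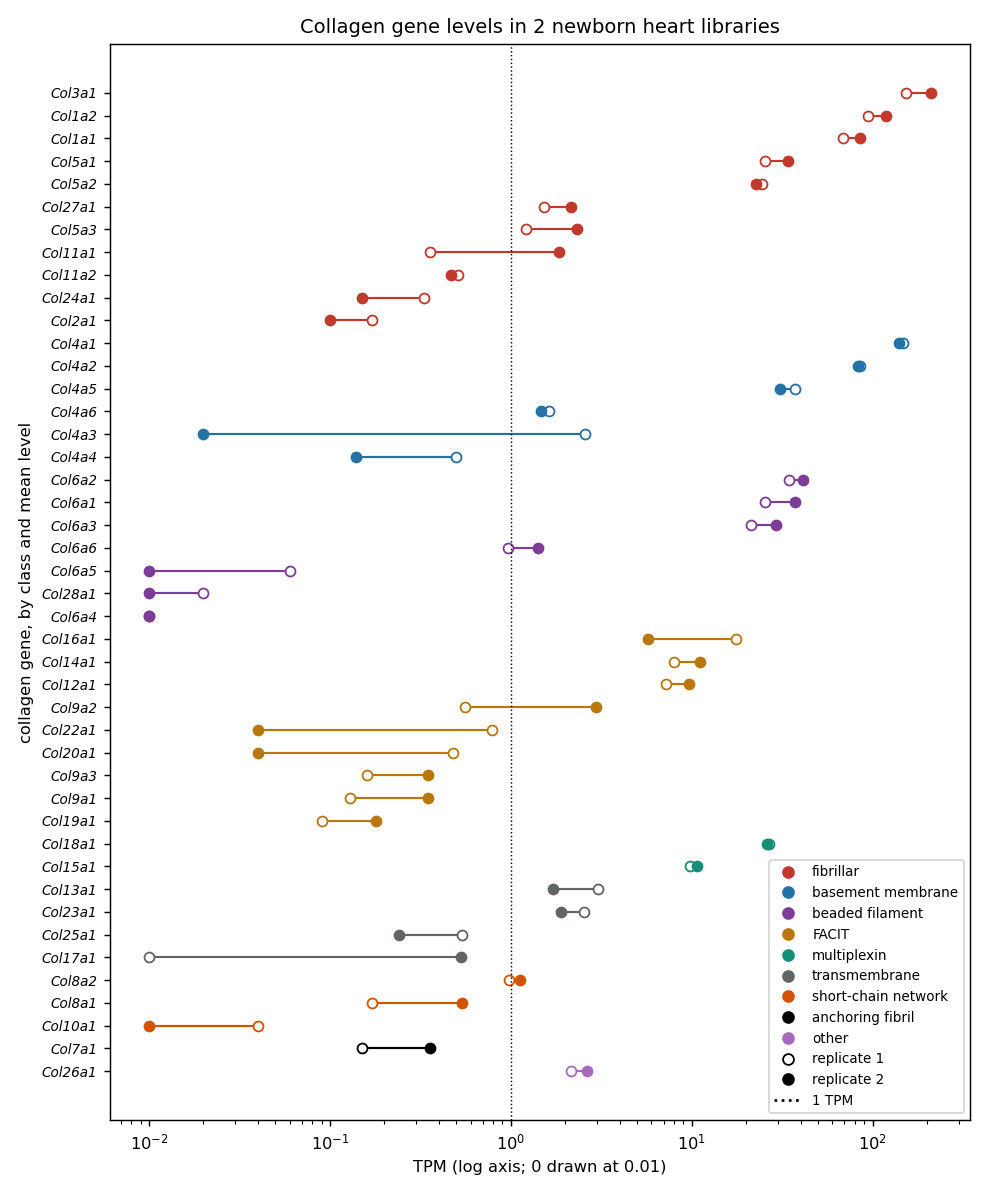
TPM of the 44 collagen genes (log axis, values of 0 drawn at 0.01), by class and mean level, with open circles for replicate 1, filled circles for replicate 2 and a dotted line at 1 TPM. The fibrillar and basement membrane classes hold the 5 highest genes, from 211 TPM for Col3a1 in replicate 2 down to 68.5 for Col1a1 in replicate 1, and the gaps between circles are wide for Col4a3, Col16a1, Col9a2 and Col11a1.

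Lists of cell type genes give the setting. All 8 cardiomyocyte genes listed were detected, summing to 12313 and 12665 TPM in replicates 1 and 2. All 9 fibroblast genes (942 and 926 TPM) and all 6 endothelial genes (146 and 136 TPM) were detected too. Vim alone held 720 and 667 TPM of the fibroblast sums. Smooth muscle genes summed to 327 and 665 TPM, with 4 of 6 at least 2-fold higher in replicate 2 (Tagln, Cnn1, Myh11 and Mylk). Pericyte genes summed to 63.7 and 91.5 TPM, and epicardial genes to 57.1 and 86.2. Bladder urothelium genes, which heart should lack apart from the shared epicardial genes Upk3b and Upk1b, summed to 23.9 and 99.8 TPM. Also 2-fold or more higher in replicate 2 were the fibroblast genes Pdgfra and Ddr2, the pericyte gene Kcnj8, the epicardial genes Upk1b, Krt19 and Wt1, and the urothelial genes Upk1a, Upk2 and Upk3a. Upk3a, a urothelial plaque protein, was at 0.07 and 32.6 TPM, while Upk2 and Krt5 were listed at 0 in replicate 1. The thymus and lung sums went the other way, from 3.32 to 0.01 TPM and from 3.90 to 0.22 TPM. In replicate 1, Rag1 held 3.20 TPM of the thymus sum, and every other thymus gene listed was at 0.07 TPM or less. The lung sum there came mostly from Scgb1a1 and Sftpc, at 2.33 and 1.12 TPM from 46 and 61 counts. Both Rag1 and Scgb1a1 were 2-fold or more lower in replicate 2, as was Comp of the cartilage genes. Cartilage genes summed to 3.91 and 2.16 TPM with none of 7 detected and Matn1 and Cnmd listed at 0, all 4 bone genes were listed at 0 in both libraries, and of 3 tendon genes Scx alone was detected. In bulk tissue fewer cells of a type and less RNA per cell cannot be told apart.

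Fibrillar collagens made up the largest class. Added up, the 11 genes gave 369.9 and 479 TPM in replicates 1 and 2, or 45.8% and 52.1% of collagen TPM, and 7 of them were detected. The class is marked by a long helix with few or no breaks, and much of that helix is written in exons of 54 bases, each holding 6 Gly-X-Y triplets. One such exon is shown for each of the 3 most abundant fibrillar genes, to make the repeat visible. Capitals mark the glycine codon that opens each Gly-X-Y triplet. Coordinates are on GRCm38 (mm10), all on the plus strand: exon 6 of Col3a1-201 at chr1:45325360-45325413, exon 8 of Col1a2-201 at chr6:4515481-4515534 and exon 8 of Col1a1-201 at chr11:94939904-94939957.
Col3a1: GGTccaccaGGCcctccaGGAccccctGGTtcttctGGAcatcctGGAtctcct
Col1a2: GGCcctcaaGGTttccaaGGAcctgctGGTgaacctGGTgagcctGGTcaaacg
Col1a1: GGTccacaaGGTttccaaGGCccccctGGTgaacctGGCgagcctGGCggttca

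Col3a1, the only chain of type III collagen, which forms thin fibrils in distensible tissue, was the highest collagen gene (ENSMUSG00000026043.14, GRCm38 chromosome 1, 45311538 to 45349706). It was at 153 and 211 TPM, from 85035 and 122773 counts. Col1a2, the alpha 2 chain of type I collagen, was at 94.1 and 118 TPM (ENSMUSG00000029661.12, chromosome 6, 4504814 to 4541544). Col1a1, the alpha 1 chain of type I collagen, was at 68.5 and 85 TPM (ENSMUSG00000001506.10, chromosome 11, 94936224 to 94953042). All 3 stood higher in replicate 2, by 0.44, 0.31 and 0.29 on the log2 scale. Type V collagen starts the type I fibril and sets its width. Its chain Col5a1 was at 25.4 and 34.1 TPM. Col5a2, its partner chain, was at 24.5 and 22.8 TPM, and was the only fibrillar gene at a mean of 1 TPM that stood lower in replicate 2, by a log2 difference of -0.13. Both type V chains thus lay between 22.8 and 34.1 TPM, below each type I chain in both libraries.

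The other fibrillar genes were close to or under 1 TPM. Col27a1, a chain best known from cartilage, was at 1.53 and 2.16 TPM. The rarer type V chain Col5a3 was at 1.21 and 2.32 TPM. Col11a1, a fibril-initiating chain of cartilage that is also made in other embryonic tissues, passed 1 TPM in replicate 2 alone, at 0.36 and 1.85 TPM from 282 and 970 counts. Col11a2 was at 0.51 and 0.47 TPM, and Col24a1 at 0.33 and 0.15. Col2a1, the main fibrillar chain of cartilage, was at 0.17 and 0.10 TPM from 84 and 53 counts. These low values stood beside cartilage marker genes that were themselves at 2.55 TPM or less.

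Basement membrane collagen was the second class, at 274.8 TPM in replicate 1 and 255 in replicate 2, or 34.0% and 27.7% of collagen TPM, with 4 of 6 genes detected. Col4a1 and Col4a2, the chains of the widespread type IV network, carried most of it. Col4a1 was at 147 and 139 TPM from 97979 and 97632 counts (ENSMUSG00000031502.9, chromosome 8, 11198423 to 11312826). By counts it was the highest collagen gene of replicate 1, ahead of Col3a1, which has the shorter transcript. Col4a2 was at 85.7 and 83.2 TPM (ENSMUSG00000031503.9, chromosome 8, 11312805 to 11449287). The log2 differences of Col4a1 and Col4a2 between replicates were -0.10 and -0.07.

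Col4a5, an X-linked chain found in some basement membranes, was at 37.1 and 30.95 TPM (ENSMUSG00000031274.12, chromosome X, 141475385 to 141689234). Col4a6, its X-linked neighbour, was at 1.62 and 1.47 TPM. Col4a3, a chain of mature kidney and lung basement membranes, was at 2.57 and 0.02 TPM from 266 and 14 counts, so that it passed 1 TPM in replicate 1 alone. Col4a4, its usual partner, was at 0.50 and 0.14 TPM from 514 and 150 counts. The 4 detected genes of the class kept their order in both libraries. Col4a3 was above Col4a4 by TPM in replicate 1 alone, and below it in both libraries by counts and on transcripts of 1000 nucleotides or more (0.24 and 0.50 TPM in replicate 1, 0.02 and 0.14 in replicate 2).

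The 6 type IV genes lie in 3 pairs that are transcribed away from each other. Annotated start sites are 21 bases apart for Col4a1 and Col4a2, whose gene models overlap, 72 bases apart for Col4a4 and Col4a3 on chromosome 1, and 1309 bases apart for Col4a6 and Col4a5. Col4a3 over Col4a4 was 5.14 in replicate 1 and 0.143 in replicate 2, and Col4a3 had no matched promoter window. The closest pair differed by less than 2-fold in level, and the X-linked pair by more than 20-fold. The promoters of the closest and the X-linked pair are printed. Each is RefSeq's window from 250 bases before to 50 after the start, on GRCm38.p6, 5′ to 3′ on the gene's strand: Col4a1 at chr8:11312777-11313076 (minus), Col4a2 at chr8:11312555-11312854 (plus), Col4a5 at chrX:141475169-141475468 (plus) and Col4a6 at chrX:141474027-141474326 (minus). Capitals mark exact matches on either strand to CCAAT and GGGCGG, which read ATTGG and CCGCCC on the other strand.
Col4a1: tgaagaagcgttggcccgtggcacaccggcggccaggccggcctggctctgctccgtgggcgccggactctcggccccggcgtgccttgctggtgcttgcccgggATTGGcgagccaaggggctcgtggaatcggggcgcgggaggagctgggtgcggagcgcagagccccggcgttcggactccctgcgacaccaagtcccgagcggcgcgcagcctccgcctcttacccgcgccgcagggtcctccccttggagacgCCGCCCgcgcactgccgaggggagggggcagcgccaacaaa
Col4a2: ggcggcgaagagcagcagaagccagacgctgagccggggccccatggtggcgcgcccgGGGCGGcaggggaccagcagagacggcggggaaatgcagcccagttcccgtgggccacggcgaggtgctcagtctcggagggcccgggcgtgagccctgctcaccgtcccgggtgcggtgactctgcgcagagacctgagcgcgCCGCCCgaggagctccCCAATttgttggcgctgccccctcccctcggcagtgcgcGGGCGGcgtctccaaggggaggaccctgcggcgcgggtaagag
Col4a5: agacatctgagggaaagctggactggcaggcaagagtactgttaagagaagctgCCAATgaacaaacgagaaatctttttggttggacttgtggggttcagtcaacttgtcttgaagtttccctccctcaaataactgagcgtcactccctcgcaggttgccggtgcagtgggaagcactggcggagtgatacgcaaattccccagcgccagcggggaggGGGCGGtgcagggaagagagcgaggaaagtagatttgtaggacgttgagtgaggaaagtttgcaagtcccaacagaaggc
Col4a6: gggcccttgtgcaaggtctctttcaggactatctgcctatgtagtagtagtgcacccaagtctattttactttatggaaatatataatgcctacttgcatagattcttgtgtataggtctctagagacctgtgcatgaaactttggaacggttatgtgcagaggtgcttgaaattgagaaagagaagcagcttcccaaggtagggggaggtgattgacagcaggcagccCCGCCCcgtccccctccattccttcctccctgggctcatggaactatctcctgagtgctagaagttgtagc

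The Col4a1 and Col4a2 windows share 78 bases, so part of each sequence is the reverse complement of the other. Their GC content was 74.0% and 73.7%, against a median of 52.7% over all 32851 promoter windows, while Col4a5 was at 52.7% and Col4a6 at 48.3%. Col4a1 held 1 match to CCAAT and 1 to GGGCGG, Col4a2 held 1 and 3, Col4a5 held 1 and 1, and Col4a6 held none and 1. The GGGCGG match of Col4a1 lies in the shared bases and is also 1 of the 3 of Col4a2, so it is counted for both. RefSeq windows were matched by symbol for 35 of 44 collagens, 38 windows in all. Of these 38, GGGCGG was found in 23, beside 35.7% of all windows, CCAAT in 13, beside 37.4%, and TATAAA in 5, beside 13.6%. The 5 with TATAAA were Col3a1, Col10a1, Col11a2, Col13a1 and Col17a1. A match describes the letters only.

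Beaded filament collagens, which are the type VI chains and Col28a1, had a sum of 82.4 and 109 TPM, with 3 of 7 detected. The 3 chains of the classical type VI trimer were all present. Col6a2 was at 34.7 and 41.3 TPM, from 13649 and 17436 counts. Col6a1 was at 25.3 and 37.5 TPM, from 10194 and 15829 counts. Col6a3, the longest of these chains, was at 21.3 and 29.2 TPM, from 13507 and 16003 counts. Every one of these chains lay below all replicates of Col1a1 and above all replicates of the FACIT genes. The alternative chain Col6a6 was at 0.97 and 1.42 TPM. Col6a5 was at 0.06 TPM in replicate 1 and listed at 0 in replicate 2, Col28a1 at 0.02 TPM in replicate 1 and listed at 0 in replicate 2, and Col6a4 was listed at 0 in both, with 3 and 0 counts.

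FACIT collagens had a sum of 35.0 and 30.5 TPM, with 3 of 9 genes detected. By counts the class was higher in replicate 2, at 11760 and 16484, or 0.0168% and 0.0224% of gene counts. Of the TPM sum, the short transcript Col16a1-208 held 12.3 TPM in replicate 1 and none in replicate 2. The short Col9a2-202 held 2.09 TPM in replicate 2 and none in replicate 1. Col16a1, a FACIT made by fibroblasts and smooth muscle, was at 17.6 and 5.71 TPM, although its counts were 2624 and 2887. Col14a1, which binds mature fibrils and limits their lateral growth, was at 7.94 and 11.2 TPM. Col12a1, its close relative in tissues under load, was at 7.22 and 9.71 TPM. Col14a1 and Col12a1 overlapped in range, with Col14a1 the higher by TPM in each replicate. With 1 effective length per gene for both libraries, that order held in replicate 1 alone. The log2 ratios of Col12a1 over Col14a1 were then -0.45 and 0.11. Type IX collagen decorates cartilage fibrils. Its chain Col9a2 was at 0.56 and 2.96 TPM, while Col9a1 was at 0.13 and 0.35 TPM and Col9a3 at 0.16 and 0.35. The remaining FACIT genes, Col22a1, Col20a1 and Col19a1, were between 0.04 and 0.79 TPM.

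Multiplexins are basement membrane collagens whose C-terminal pieces can be released as inhibitors of vessel growth, endostatin from Col18a1. Both were detected. Col18a1 was at 26.6 and 26.05 TPM, from 13230 and 13268 counts. Col15a1 was at 9.79 and 10.8 TPM. The class sum was 36.4 and 36.8 TPM, and its SD of 0.283 TPM over n = 2 was the smallest, relative to its mean, of the classes. Among the transmembrane collagens, which span the plasma membrane, Col13a1 was at 3.05 and 1.72 TPM and Col23a1 at 2.55 and 1.90, while Col25a1 was at 0.54 and 0.24. Col17a1, the hemidesmosome collagen of skin and other stratified epithelia, was listed at 0 in replicate 1, where a count of 0 allows up to 3 counts, and reached 0.53 TPM in replicate 2 from 304 counts. Beside it, keratinocyte genes summed to 1.07 and 3.03 TPM and bladder urothelium genes, the shared epicardial Upk3b and Upk1b included, to 23.9 and 99.8 TPM. Their part in that value was not tested.

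Of the short-chain network collagens, Col8a2 was at 0.98 and 1.13 TPM and Col8a1, its partner in the matrix of vessels and cornea, at 0.17 and 0.54. Col10a1, the collagen of hypertrophic cartilage, was at 0.04 TPM in replicate 1 and listed at 0 in replicate 2. Col7a1, which forms the anchoring fibrils of skin, was at 0.15 and 0.36 TPM. Col26a1, a short protein with collagenous stretches, was at 2.14 and 2.63 TPM.

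Few genes supplied most of the collagen RNA. Col3a1 and Col4a1 together held 37.2% of collagen TPM in replicate 1 and 38.1% in replicate 2. With Col1a2, Col4a2 and Col1a1 added, these 5 genes held 67.9% and 69.3%. The 12 highest genes, down to Col5a2, held 92.0% and 93.4%. When the 22 detected genes were ranked by mean TPM, 15 of 21 neighbouring pairs had replicate ranges that overlapped. The steps without overlap were Col3a1 over Col4a1, Col4a1 over Col1a2, Col1a2 over Col4a2, Col1a1 over Col6a2, Col5a2 over Col16a1 and Col12a1 over Col13a1. Among the 21474 protein-coding genes, Col3a1 ranked 278 in replicate 1 and 208 in replicate 2, and Col4a1 ranked 284 and 299.

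Ratios between chains were compared within each library for 25 pairs of genes that share a collagen type or a class. A pair was called unequal when the log2 ratio of TPM plus 0.1 had 1 sign and exceeded 2.15 in both replicates, which is the 95th percentile of single-gene differences between the libraries. The call was made for 7 of 25 pairs. Type V chains differed, with Col5a1 over Col5a3 at 4.28 in replicate 1 and 3.82 in replicate 2, and Col5a2 over Col5a3 at 4.23 and 3.24. Among type IV chains, Col4a5 over Col4a6 was at 4.44 and 4.31, and Col4a1 over Col4a3 at 5.79 and 10.18. Col6a3 over Col6a6 was at 4.32 and 4.27, and Col6a3 over Col6a5 at 7.06 and 8.19. Col1a1 over Col2a1 was at 7.99 and 8.73.

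The main heterotrimer partners were within that limit of each other, and their ratios are given as plain ratios of TPM. Col1a1 over Col1a2 was 0.728 in replicate 1 and 0.718 in replicate 2, with the alpha 2 gene the higher in both. The common type I trimer holds more alpha 1 than alpha 2 chains. Col4a1 over Col4a2 was 1.72 and 1.68, and the trimer of these chains also holds more alpha 1. The 2 ratios differed between libraries by -0.02 and -0.04 on the log2 scale, less than any of these 4 genes did by itself. By TPM on all transcripts, type VI chains lay within 2-fold of each other. Col6a1 over Col6a2 was 0.731 and 0.907, Col6a1 over Col6a3 1.19 and 1.29, and Col6a2 over Col6a3 1.63 and 1.42. On transcripts of 1000 nucleotides or more, Col6a3 was at 17.3 and 19.5 TPM in replicates 1 and 2, and Col6a2 at 34.7 and 41.3. The mean log2 ratio of Col6a2 over Col6a3 was then 1.04, past 2-fold. Those of Col6a1 over Col6a3 and over Col6a2 were 0.75 and -0.30, within 2-fold. Col5a1 over Col5a2 was 1.04 and 1.5. Col3a1 stood above both type I genes, 2.24 and 2.49 times Col1a1 and 1.63 and 1.78 times Col1a2.

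Other uncalled pairs were Col12a1 over Col14a1 at 0.909 and 0.870, Col15a1 over Col18a1 at 0.368 and 0.413, and Col8a1 over Col8a2 at 0.173 and 0.478. Col9a1 over Col9a3 was 0.813 and 1.00. Col1a1 over Col5a1 was 2.70 and 2.49, and Col4a1 over Col4a5 was 3.97 and 4.51. Col9a2 exceeded Col9a3 by 3.50 and 8.46 times, and Col9a1 was at 0.232 and 0.118 of Col9a2. Col9a3 rested on 6 and 22 counts. Transcripts with a retained intron held 100% of its TPM in replicate 1 (Col9a3-206) and 88.7% in replicate 2 (Col9a3-204), so its ratios hardly describe a coding transcript. With 1 effective length per gene, the log2 ratios were 2.01 and 1.81 for Col9a2 over Col9a3 and -1.98 and -2.05 for Col9a1 over Col9a2. The pairs Col1a1 with Col5a1, Col4a1 with Col4a5, and Col9a2 with Col9a1 and with Col9a3 passed when the limit was taken from genes at a mean of 10 TPM, 1.28 on the log2 scale, which raised the count to 11. The ratios of 2 pairs changed direction between the libraries: Col11a1 over Col11a2 went from 0.706 to 3.94, and Col4a3 over Col4a4 from 5.14 to 0.143. With 1 effective length per gene the log2 ratio of Col4a3 over Col4a4 was 0.11 and -0.92, and on transcripts of 1000 nucleotides or more Col4a3 was the lower in both libraries.

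**Figure D2:**
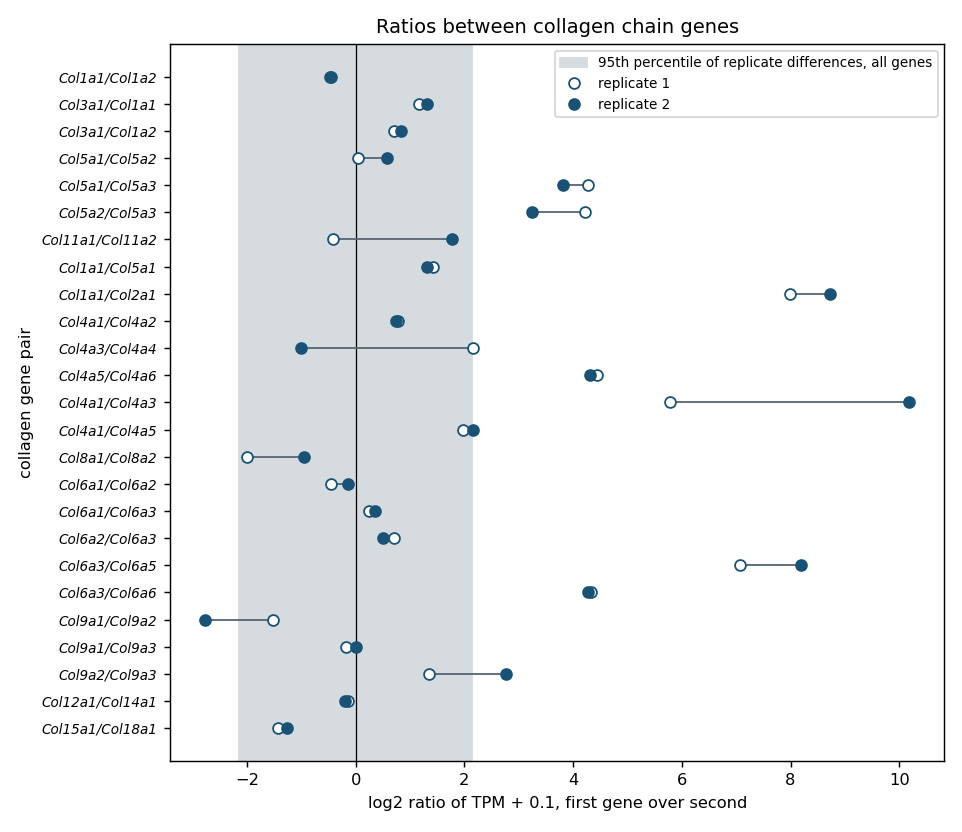
Log2 ratio of TPM plus 0.1 for 25 collagen gene pairs, first gene over second, with open circles for replicate 1 and filled circles for replicate 2. The grey band is the 95th percentile of single-gene differences between libraries (2.15 either way), and 7 pairs have both circles outside it on the same side.

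How far the libraries differed was measured as the log2 ratio of TPM plus 0.1, replicate 2 over replicate 1, centred on the median of the 11594 genes whose mean reached 1 TPM. With 1 library on each side, called means only 2-fold or more apart, which held for 19.0% of all those genes. Of 27 collagens at that mean, 4 were called, a share near that of all genes. Col9a2 and Col11a1 were higher in replicate 2, by 2.19 and 2.06, and Col16a1 and Col4a3 were lower, at -1.63 and -4.50. None of the 4 exceeded a mean of 11.7 TPM. Counted by direction at any size, 17 of 27 collagens were higher in replicate 2, beside 50.0% of all genes, with a median of 0.26 and quartiles of -0.11 and 0.44, beside 0 with quartiles of -0.39 and 0.41 over all genes.

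Directions differed by class. Of 8 fibrillar genes at a mean of 1 TPM, 7 were higher in replicate 2, with a median difference of 0.42. All 4 beaded filament genes were higher, with a median of 0.46. All 5 basement membrane genes were lower, with a median of -0.15, and so were both transmembrane genes, at -0.62. These counts for the fibrillar, basement membrane, beaded and transmembrane genes were the same under every scaling and estimate tried at that mean. FACIT genes were 3 higher and 1 lower by TPM, with the lower one Col16a1, and 4 of 4 higher by counts. Smooth muscle, pericyte and bladder urothelium genes moved in the direction of the fibrillar and beaded genes. Smooth muscle genes were higher in replicate 2 in 6 of 6 (327 and 665 TPM), and pericyte genes in 5 of 5 (63.7 and 91.5 TPM). Bladder urothelium genes summed to 23.9 and 99.8 TPM. Upk3b and Upk1b, shared with the epicardial list, held 18.3 and 5.01 TPM of that in replicate 1 and 16.8 and 20.5 in replicate 2. Endothelial genes, at 146 and 136 TPM, were higher by TPM in 2 of 6. With 1 effective length Emcn turned from -0.42 to 0.14, while Kdr and Tek were at 0.18 and 0.10. Pecam1, Cdh5 and Tie1 were then at -0.25, -0.02 and -0.006. Fibroblast genes summed to 942 and 926 TPM, with 5 of 9 higher in replicate 2 and a median difference of 0.22. Vim alone held 720 and 667 TPM of these sums and was lower in replicate 2, at -0.13. The part of these cell types in the collagen differences was not tested.

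**Figure D3:**
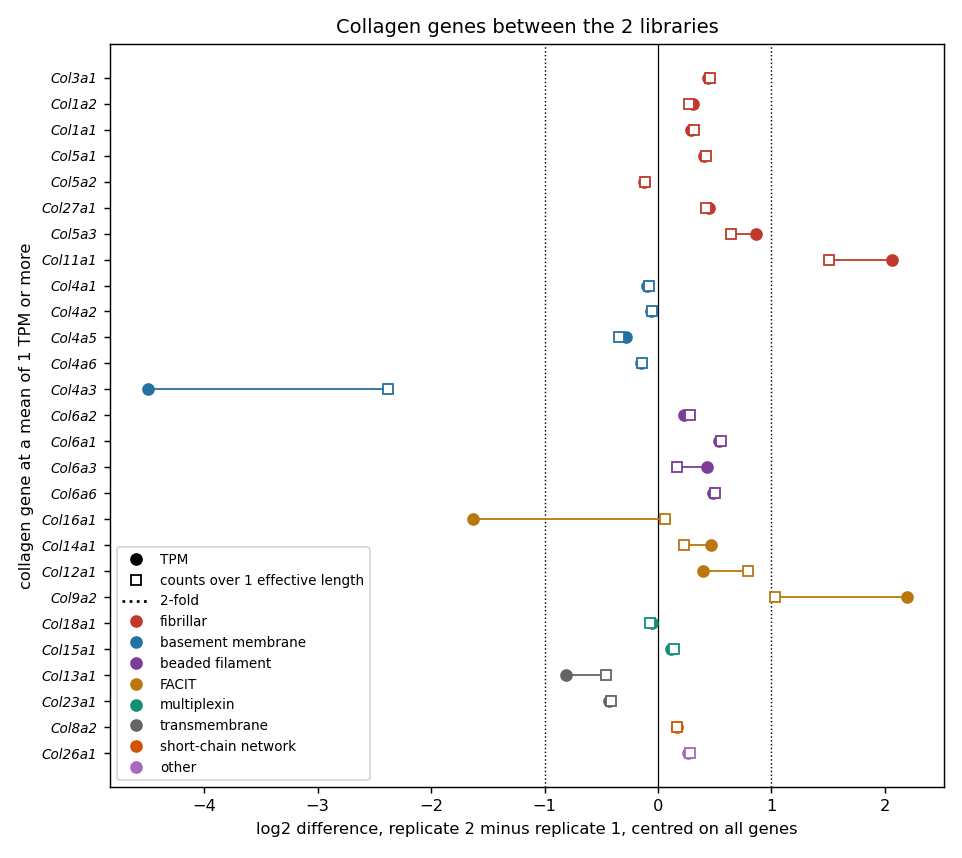
Log2 difference of replicate 2 minus replicate 1 for the 27 collagens whose mean reached 1 TPM, as filled circles for TPM and open squares for counts divided by 1 effective length per gene, with dotted lines at 2-fold. Circles of the 5 basement membrane genes lie left of 0, 7 of 8 fibrillar circles lie right of it, and the square of Col16a1 returns to 0.06 from a circle at -1.63.

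A gene's TPM also depends on which of its transcripts the counts were given to, because a short transcript has a short effective length. For 7 of the 27 collagens the effective length differed 1.2-fold or more between libraries, beside 25.1% of all genes at that mean. Col16a1 had an effective length of 1410 nucleotides in replicate 1 and 4562 in replicate 2. In replicate 1, 122 of its counts were given to Col16a1-208, a short annotated transcript of 383 nucleotides, and made 69.6% of its TPM, while replicate 2 had none there. The full-length Col16a1-201 was at 2.28 and 3.20 TPM. With 1 effective length for both libraries the log2 difference of Col16a1 was 0.06, against -1.63 from TPM.

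Col4a3 and Col9a2 showed the same kind of shift in opposite libraries. In replicate 1, 57.8 counts given to Col4a3-202, a transcript of 524 nucleotides classed as a target of nonsense-mediated decay, made 90.7% of the gene's TPM. The full-length Col4a3-201 still held 208 counts in replicate 1 and 14 in replicate 2, so Col4a3 remained lower in replicate 2 with 1 effective length, at -2.38. In replicate 2, 108 counts given to Col9a2-202, a processed transcript of 752 nucleotides, made 70.7% of the TPM of Col9a2. Its coding transcript Col9a2-201 was at 0.56 and 0.87 TPM, and on transcripts of 1000 nucleotides or more the difference of the gene was 0.56, against 2.19 on all. For Col11a1 the full-length transcript itself held 282 and 799.5 counts, and a second coding transcript took 170 counts in replicate 2 alone. With 1 effective length, 3 collagens remained 2-fold apart (Col4a3, Col9a2 and Col11a1), beside 14.1% of all genes.

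**Figure D4:**
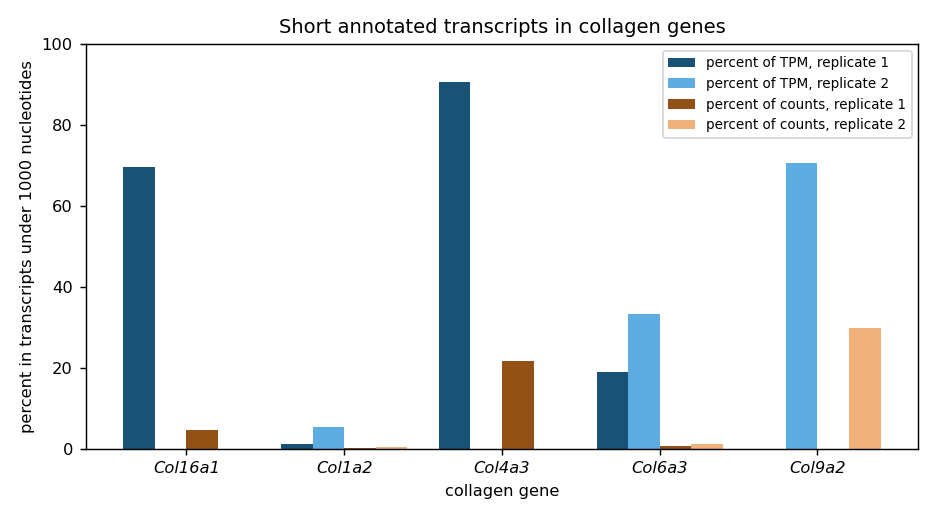
Percent of a gene's TPM (blue) and of its counts (brown) in transcripts under 1000 nucleotides, dark for replicate 1 and light for replicate 2, for the 5 collagens at a mean of 1 TPM with 5% or more of TPM there in a library. Short transcripts hold 69.5% of Col16a1 TPM but 4.65% of its counts in replicate 1.

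All 22 detected collagens had at least 2 annotated transcripts, and 18 had the same leading transcript in both libraries. In 13 of the 22 that transcript held 80% or more of the gene's TPM in both, among them Col3a1-201 (99% in each library), Col4a1-201 (99.6% and 99.9%), Col4a2-201 (99.96% and 99.8%), Col1a1-201 (99.3% and 100%) and Col1a2-201 (98% and 94.1%). The 4 genes whose leading transcript differed were Col4a5, Col12a1, Col13a1 and Col16a1. Col4a5 was split between the long Col4a5-202, at 55.2% and 38.9% of TPM, and Col4a5-204 of 3511 nucleotides, at 44.8% and 52.2%. Col12a1-201, the longest form at 11511 nucleotides, was at 1.99 and 4.54 TPM, and Col12a1-204 of 1784 nucleotides at 3.58 and 2.31. Col13a1 gave 43.4% to Col13a1-205 in replicate 1 and 100% to Col13a1-204 in replicate 2, of 3162 and 2935 nucleotides. Col6a3-207, of 476 nucleotides, held 18.9% and 33.3% of Col6a3 TPM from 79.5 and 202 counts, beside 10017 and 12323 counts of Col6a3-202.

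The leading transcript was protein-coding in both libraries for 21 of the 22. The exception was Col27a1, where Col27a1-206, classed as a target of nonsense-mediated decay, held 51.5% and 44.7% of TPM and the full-length coding Col27a1-201 31.6% and 23.2%. Coding transcripts held 90% or more of the counts in both libraries for 16 of the 22. For Col5a3 a transcript with a retained intron held 0 counts in replicate 1 and 404 in replicate 2, and the coding Col5a3-201 was at 1.21 and 1.31 TPM.

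Genes that modify, export, cut, crosslink or bind collagen were read from lists of 68 genes, of which 56 were detected. All 13 genes of chain hydroxylation were detected, the step that stabilises the helix and prepares crosslinks. Among them Ppib, a prolyl isomerase of the hydroxylase complex, was at 63.9 and 74.4 TPM, P4hb, the beta subunit of prolyl 4-hydroxylase, at 62.8 and 61.5, and Plod1, a lysyl hydroxylase, at 21.9 and 28.3. Both galactosyltransferases of collagen were detected, with Colgalt1 at 18.0 and 20.1 TPM and Colgalt2 at 1.18 and 1.22. All 6 chaperone and export genes were detected, led by Serpinh1, the collagen chaperone HSP47, at 196 and 175 TPM, above Col1a1 and Col1a2 in both libraries. Fkbp10, a helper of lysyl hydroxylation, was at 27.5 and 30.1 TPM. Mia3, which loads collagen into transport vesicles, was at 14.4 and 44.3 TPM, while its counts were 1733 and 1340 and its effective length 1143 and 273 nucleotides.

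Propeptide cleavage was represented by 4 of 8 genes, with the cleavage enhancer Pcolce at 52.5 and 45.5 TPM, the C-proteinase Bmp1 at 13.4 and 14.4, and the N-proteinase Adamts2 at 4.94 and 5.13. Of 5 crosslinking lysyl oxidases 4 were detected, with Loxl2, an oxidase that acts on type IV collagen, at 38.2 and 29.2 TPM, Loxl1 at 12.5 and 17.3, and Lox at 10.6 and 9.36. All 11 partners of fibrils were detected, led by the collagen-binding Sparc at 188 and 221 TPM, Postn at 113 and 115, and the small proteoglycan Dcn at 61.8 and 81.6. All 7 basement membrane partners were detected, led by the perlecan gene Hspg2 at 134 and 125 TPM, then Lamc1 at 55.9 and 48.8 and Lamb1 at 49.3 and 49.96. Fibril partners were higher in replicate 2 in 7 of 11 genes with a median of 0.21, and basement membrane partners in 0 of 7 with a median of -0.13, beside 50.0% of all genes. Across the other scalings the latter count was between 0 and 2 of 7 and the former 7 or 8 of 11.

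Of 11 receptor and uptake genes 6 were detected. Itgb1, the beta 1 integrin of all collagen-binding integrins, was at 82.6 and 63.4 TPM, and Itga1, which favours type IV collagen, at 11.1 and 8.84. The discoidin receptor Ddr1 was at 53.9 and 27.8 TPM, and Ddr2, the form of fibroblasts, was 2-fold or more higher in replicate 2, at 1.32 and 2.98. So was Adgrg1, a receptor that binds type III collagen, at 1.23 and 3.03 TPM. Of 5 turnover genes 3 were detected, Mmp2 at 23.2 and 30.3 TPM, Mmp14 at 14.9 and 18.8, and Ctsk, the collagen-cleaving cathepsin K, at 3.10 and 1.47, which was 2-fold lower in replicate 2. In all, 3 of the 56 role genes were 2-fold higher and 1 lower in replicate 2, beside 10.1% and 8.9% of all genes, with a median difference of -0.04. One of the 3 was Mia3, whose log2 difference of 1.60 by TPM turned to -0.44 with 1 effective length.

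The coding sequences show what the classes share apart from their names. In the longest annotated coding transcript of each gene, every one of the 44 collagens had an unbroken run of at least 23 Gly-X-Y triplets, read as a codon starting with GG at the first of every 3. A run of 10 or more was found in 95 of 21428 protein-coding genes. Fibrillar genes had runs of 216 to 344 triplets with a median of 338. The longest was in Col3a1, and the shortest were 216 in Col24a1 and 217 in Col27a1. Type IV genes had longest runs of 39 to 66 although their coding sequences, 5007 to 5121 bases, lie within the fibrillar range of 4116 to 5535, and Col4a1 had 74.1% of its codons in such runs, close to the 73.2% of Col3a1. Beaded filament genes had runs of 28 to 87, FACIT genes of 32 to 113, and Col26a1 the shortest longest run, 23.

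Exon lengths also differed between the pooled classes, while single genes of different classes overlapped. Of 627 inner coding exons of fibrillar genes, 305 were 54 bases long (48.6%), and 83.9% were a multiple of 9 bases, the length of a triplet. The share of 54-base exons was 26.3% in FACIT genes, 8.02% in beaded filament genes and 4.23% in type IV genes, against 0.737% of 157558 inner coding exons of all protein-coding genes. The fibrillar genes Col3a1 and Col5a2 lie tail to tail on chromosome 1, 24614 bases apart, and differed in level as 153 to 24.5 TPM in replicate 1 and 211 to 22.8 in replicate 2. Col6a2 and Col6a1 are neighbours on 1 strand of chromosome 10 and were within 2-fold of each other.

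**Figure D5:**
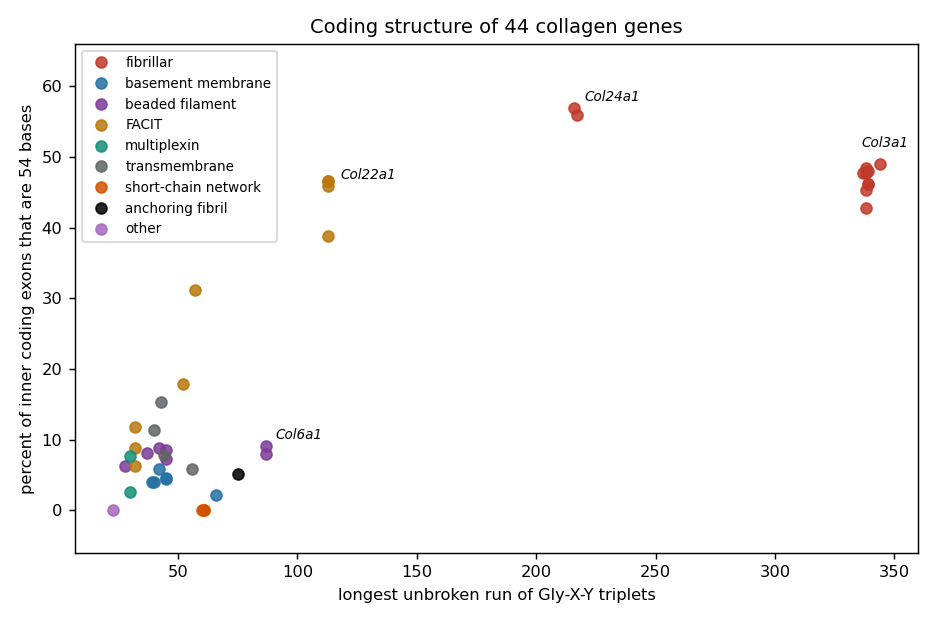
Percent of inner coding exons that are 54 bases long against the longest unbroken run of Gly-X-Y triplets for the 44 collagen genes, 1 point a gene, coloured by class, with the 3 short-chain genes, which have no inner coding exon, drawn at 0. Fibrillar genes lie right, at runs of 216 or more, and type IV genes lie at the lower left, with runs of 66 or fewer.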

How the data were processed

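Collagens were matched by gene identifier without version in both gene tables. Names, exons and coding sequences came from GENCODE M21 on GRCm38 for 42462 of 43346 genes. The deposited notes name assembly mm10 and annotation GENCODE M4, and the column names are those of RSEM, with aligner and program versions not given in the sources used here. Per the file headers, the expected count is an estimated count of fragments per gene or transcript, not normalized between libraries. The deposited TPM values are those counts per effective length, brought to 1 total per table, spike-ins and structured RNAs included, so protein-coding genes hold 33.3% and 33.6% of TPM. The deposited FPKM values and posterior mean TPM served as alternatives. The deposited percent per transcript is its share of the gene's TPM. Expected counts summed to 71186117 and 75105452 over the tables. Lengths are in nucleotides.

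Sums, ratios and differences were computed with Python 3.11.15, numpy 2.4.6 and pandas 2.3.3, and drawn with matplotlib 3.10.9. TMM factors of edgeR 4.0.16 and size factors of DESeq2 1.42.0 (R 4.3.3), from counts rounded to integers, served only as alternative scalings, and no test of either was run. Centring shifted log2 differences by 0.02. For the alternative with 1 effective length, counts of both libraries were divided by the mean of both lengths. Alternatives also covered thresholds, pseudocounts, filters and single replicates. The 2-fold calls and the reading of Gly-X-Y runs, but not the pair calls, were tested on simulated data. All 44 collagens were named, with values in full for detected genes and members of the 25 pairs, and of each other list up to 3 members of highest mean TPM and those 2-fold apart. Cell type lists are given as sums with their genes 2-fold apart, and 1 such gene is not reported here. The members, lists and pairs were chosen with earlier results of these data known. Promoter windows came from RefSeq on GRCm38.p6.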

Additional observations from a re-analysis of the deposited data

How the results depend on the processing

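No paired analysis was possible because the series has 1 group, so no replicate number is shared between groups. The 22 detected collagens became 38 at an expected count of 10 or more, and 23 to 26 when either replicate was left out. Collagens held 0.258% of protein-coding TPM, 0.0864% of all TPM, and 0.242% to 0.274% with a replicate left out. The 7 unequal pairs became 11 with the limit from genes at a mean of 10 TPM, 3 with the 99th percentile, and 8 to 10 with a replicate left out. The 3 left were Col1a1 over Col2a1, Col4a1 over Col4a3 and Col6a3 over Col6a5. Their second genes were at 0.10, 0.02 and 0 TPM in replicate 2, no more than the 0.1 TPM added to each value. The size of these ratios thus depends on that addition. The 4 collagens at least 2-fold apart became 9 without a filter on low values and 1 at a mean of 5 TPM, where fewer or more genes were counted, and 2 on transcripts of 1000 nucleotides or more, an alternative chosen after seeing the data. The Col16a1 difference reversed from -1.63 to 0.0622 with counts not divided by length, 0.0658 with TMM factors, 0.0677 with DESeq2 size factors, 0.0620 with 1 effective length and 0.0895 on transcripts of 1000 nucleotides or more. Of the other collagens at a mean of 1 TPM or more, none changed direction under the alternatives run. The difference of Col9a2 fell under 2-fold on those transcripts. The count of detected role genes, 56, was 57 and 58 with a replicate left out, and 18 leading transcripts were shared by posterior means too. Depth limits the low genes most: Col6a4, Col10a1, Col28a1, Col9a3 and Col22a1 had 33 or fewer in each library.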

Other observations

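Outside the Col symbols, 51 genes had a run of 10 or more Gly-X-Y codons, read in the same way, and 18 of them were detected. Some are not collagen-like proteins, since any codon starting with GG at the first of every 3 counts. The highest was Eln, elastin, at 97.5 TPM in replicate 1 and 70.6 in replicate 2, with a longest run of 17. The complement genes C1qa, C1qb and C1qc, whose products carry a collagen-like stalk, were at 13.2 and 10.8, 10.1 and 16.9, and 8.10 and 13.0 TPM. Colq, the collagen tail of acetylcholinesterase at the neuromuscular synapse, had the longest run of the detected ones, 59 triplets, and was at 4.28 and 3.64 TPM. Colec12, a scavenger receptor with a collagen domain, had 49 and was at 4.45 and 3.99 TPM.

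For 2 low collagens the deposited posterior mean TPM was far from the maximum likelihood TPM. Col28a1 was at 3.60 and 6.08 TPM by the posterior mean and at 0.02 TPM in replicate 1 and listed at 0 in replicate 2 by maximum likelihood, from 9 and 2 counts. Col7a1 was at 2.16 and 3.27 TPM against 0.15 and 0.36. Both genes have an annotated transcript with an effective length of a few nucleotides, Col28a1-203 at 2.64 in replicate 1 and Col7a1-207 at 5.26.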
